A study of Mus musculus with 9 samples.

Results

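Heat shock proteins and chaperonins were followed in blood and tumours of mice bearing a hepatoma graft. The genes are Hspd1, Hspe1 and Hspa9 of the mitochondrial matrix, Hspa5 and Hsp90b1 of the endoplasmic reticulum (ER), and Hspa8, Hsp90aa1, Hspb1, Cct3 and Tcp1 of the cytosol. They were taken by name, and not by their values. A spot counted for a gene if it was no control spot and its array name, or the symbol of its accession, was the gene's. This gave 17 probes of 41174, and all 10 genes were among the 14253 genes tested. Cct3 passed the filter on dim probes only through the 3 tumour samples, so a difference of Cct3 towards those samples was partly built in.

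The 9 samples came from 3 female athymic mice of the BALB/c strain, numbered 832, 833 and 834. The day 10 TIC group holds a cell fraction of the tumour, enriched in tumour-infiltrating inflammatory cells (TIC), taken 10 days after Hepa1-6 cells were placed under the skin. Hepa1-6 is an established mouse hepatoma line. The day 10 Blood group is whole blood of the same 3 mice on that day, and the day 0 Blood group is their blood before the graft, which makes day 0 the untreated control. All 3 groups share the athymic host, which lacks a thymus and so most mature T cells but keeps myeloid cells and B cells. The TIC fraction was prepared by grinding and enrichment, and no step that removes tumour cells is given in the sources used here. Tumour and blood RNA were also isolated with different kits.

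Chaperones help other proteins to fold, and each compartment of the cell has its own set. Hspd1 (HSP60) and Hspe1 (HSP10) form the barrel and lid of the mitochondrial chaperonin, while Hspa9 (mortalin) pulls proteins into the mitochondrial matrix. In the ER, Hspa5 (BiP) and Hsp90b1 (GRP94) fold secreted and membrane proteins and are classical targets of the unfolded protein response. In the cytosol, Hspa8 (HSC70) is the constitutive HSP70, Hsp90aa1 an inducible HSP90 and Hspb1 (HSP25) a small heat shock protein. Cct3 and Tcp1 are subunits of the TRiC chaperonin, which folds actin and tubulin.

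Each array compared the sample, labelled with Cy5, with RNA labelled with Cy3 from the blood of a female C57Bl/6 mouse that had no treatment, the same on all arrays. Values below are log2 ratios of sample over that reference after background correction and loess within each array, and 1 unit is a factor of 2. Because of the loess, 0 is the typical ratio of spots of like brightness on the same array, and not the level of the reference blood. The dyes were not swapped. Of all spots, 48.2 to 55.1% were well above background in Cy5 on TIC arrays, 14.2 to 21% on day 10 blood arrays and 24.3 to 36.9% on day 0 blood arrays. The TIC array of mouse 833 stood apart from the other TIC arrays (r = 0.885 and 0.896 over all tested genes, against 0.989 between mice 832 and 834). Slide 1 held the TIC array of mouse 832, slide 2 the other TIC arrays with day 0 blood of mice 832 and 833, and slide 3 the day 10 bloods with day 0 blood of mouse 834. No slide held both TIC and day 10 blood arrays, so slide and group cannot be fully told apart there. These are bulk samples, in which fewer cells of a type and less RNA per cell cannot be told apart.

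Marker genes of several cell types moved together with the groups. Of 11 measured hepatocyte and hepatoma markers, 10 or 11 were well above background on each TIC array, against 2 or 3 on day 10 blood arrays and 2 to 5 on day 0 blood arrays. Their summed background-subtracted Cy5 intensity was 76290 to 144500 in TIC, 60.6 to 97.6 in day 10 blood and 74.3 to 277.5 for day 0 blood. Alb, Apoa1, Apoa2, Apob, Fgg and Igfbp1 were well above background on every TIC array and on no blood array. All 9 macrophage markers were well above background on each TIC array, with summed intensities of 7221 to 122100 in TIC, 78.0 to 105.5 in day 10 blood and 146 to 388.1 for day 0 blood. The 4 measured fibroblast markers summed to 18050 to 140600 in TIC, 5.04 to 25.8 in day 10 blood and 12.8 to 38.1 for day 0 blood. Erythroid markers (11 measured) ran the other way, with 2968 to 11100 in TIC, 31320 to 45710 in day 10 blood and 36480 to 149400 for day 0 blood. The median log2 ratio of the hepatoma markers after loess was 1.20 to 2.22 on TIC arrays, -0.04 to 0.08 on day 10 arrays and -0.07 to 0.04 on day 0 arrays. That of the fibroblast markers, unlike their sums, was lowest in TIC, at -1.99 to -1.79, against -0.61 to -0.36 on day 10 arrays and -1.34 to -0.83 on day 0 arrays. The macrophage median was highest in TIC, at 0.42 to 0.97, against -0.12 to -0.002 on day 10 arrays and -0.06 to 0.02 on day 0 arrays. Neutrophil, B cell and T cell markers had their lowest medians in TIC on this scale. Summed neutrophil intensity, by contrast, was 21260 to 211600 in TIC, 11210 to 17760 in day 10 blood and 27040 to 71480 for day 0 blood. The neutrophil median was -1.07 to -0.66 in TIC, 1.39 to 1.58 for day 10 and 1.67 to 2.37 for day 0. The B cell median was -3.76 to -3.30 in TIC, -0.56 to -0.09 for day 10 and 0.96 to 1.17 for day 0, and the T cell median -2.47 to -2.39, -0.46 to -0.12 and -0.79 to -0.38 in that order. The part of these cells in the chaperone differences was not tested.

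In TIC against day 10 blood, the mitochondrial and ER chaperones were higher in all 3 mice, while Hspa8 and Hsp90aa1 did not pass the test. By limma across all genes, at a Benjamini-Hochberg adjusted p below 0.05, 7 of the 10 genes were higher in TIC and 1, Hspb1, was lower. With so unlike samples a call was common, since 67.6% of all genes were called, 34.4% as higher and 33.1% as lower. A call on its own thus says little about the 10 genes, and sizes are given beside it. After loess, the median log2 difference was 2.36 for the 3 mitochondrial genes and 1.88 for the 2 ER genes. It was 0.74 for the 5 cytosolic genes, beside 0.07 for all genes tested. The order of single genes across compartments depended on the scaling, as given below. The cytosolic median is the value of Cct3, which passed the filter only through the TIC arrays; without Cct3, left out after the data were seen, it was 0.59.

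**Figure D1:**
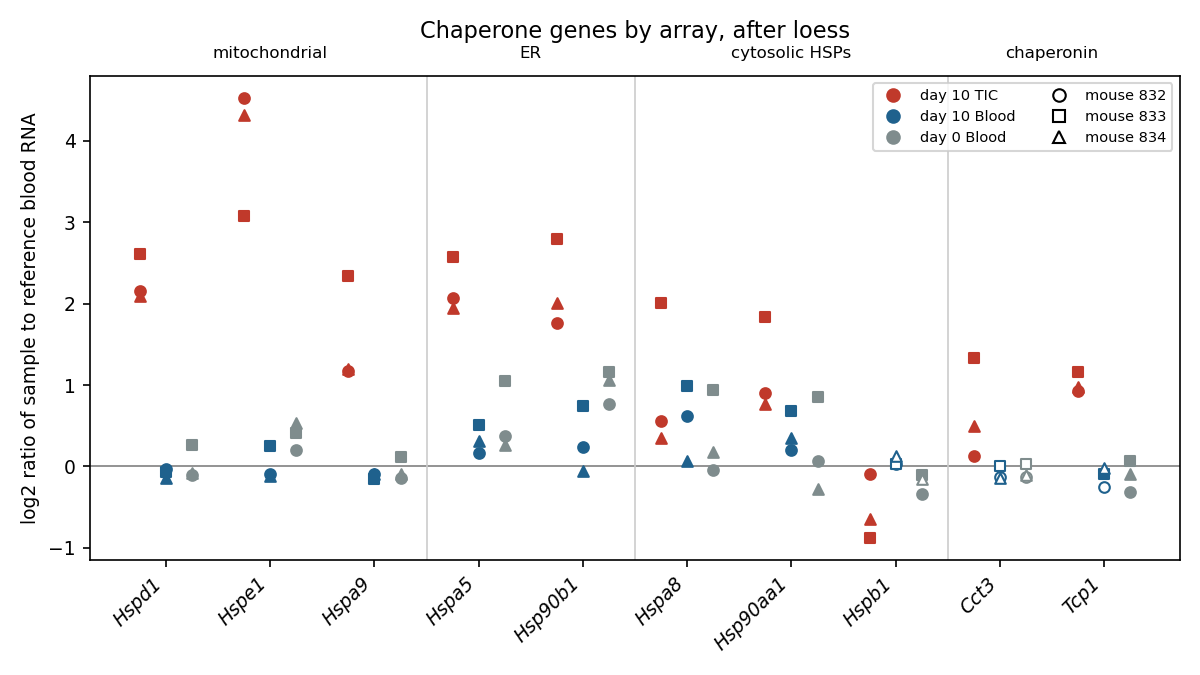
Log2 ratio of sample to reference blood RNA (vertical axis) for the 10 chaperone genes on each of 9 arrays, with TIC left, day 10 blood in the middle and day 0 blood right. Marker shape is the mouse, and open markers were not well above background. Hspe1 lies at 3.08 to 4.53 in TIC and at 0.54 or below in all blood samples, while the groups overlap for Hspa8.

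Hspe1, the lid of the mitochondrial chaperonin, had the widest gap of the 10 after loess; with Cy5 alone it was 4.22, against 4.40 for Hspd1. Its log2 ratios were 4.53, 3.08 and 4.32 in TIC of mice 832, 833 and 834, against -0.10, 0.26 and -0.12 in day 10 blood. TIC and blood did not overlap, and mouse 833 was the lowest TIC sample. The difference was 3.96 ± 0.34 on the log2 scale (SE, n = 3 each, limma adjusted p = 1.576e-05), or 15.6-fold, which ranked 11 of 14253 genes from the highest.

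Hspd1, the barrel of the same chaperonin, had log2 ratios of 2.15, 2.61 and 2.09 in TIC, against -0.03, -0.07 and -0.14 in day 10 blood. The blood values sat near 0 after loess, and TIC lay well above in every mouse. Before loess the day 10 blood ratios were -1.90, -1.73 and -2.12, below the reference. The difference was 2.36 ± 0.16 (SE, limma adjusted p = 5.28e-06), or 5.15-fold. The second Hspd1 probe, well above background on no day 10 blood array, gave 3.11. Hspa9, the motor of mitochondrial import, had log2 ratios of 1.17, 2.34 and 1.20 in TIC, against -0.09, -0.15 and -0.10 in day 10 blood. Here mouse 833 was the highest TIC sample, unlike for Hspe1. The difference was 1.68 ± 0.28 (SE, limma adjusted p = 0.000812).

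Hspd1 and Hspe1 are neighbours that are read in opposite directions. The RefSeq table (GRCm38.p6) gives 2 starts for Hspd1. One lies 95 bases beyond the Hspe1 start. The other lies 216 bases upstream of it, on the other strand, so that 215 bases lie between both genes and belong to the promoter windows of both. This stretch, chr1:55087933-55088147, is shown on the Hspe1 (plus) strand because it holds a match to the heat shock element in its 3-unit form. Capitals mark the joined matches:
Hspe1: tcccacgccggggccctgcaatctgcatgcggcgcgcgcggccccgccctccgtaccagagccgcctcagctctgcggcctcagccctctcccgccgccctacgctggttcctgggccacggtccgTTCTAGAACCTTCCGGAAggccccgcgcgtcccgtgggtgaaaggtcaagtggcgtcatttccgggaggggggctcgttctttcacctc
The motif searched was 3 blocks of TTC and GAA in turn, starting with either and each 2 bases apart; both forms are present and overlap here. The run spans positions -89 to -72 from the Hspe1 start and -144 to -127 from the Hspd1 start. Of 32817 promoter windows of 250 bases before a start, 0.466% held such a match. A match of letters is a description and no proof of binding. The window at the other Hspd1 start held none.

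The ER chaperones were also well separated. Hspa5, the ER HSP70, had log2 ratios of 2.08, 2.58 and 1.95 in TIC, against 0.17, 0.51 and 0.32 in day 10 blood. All TIC samples were above all blood samples, and the difference was 1.87 ± 0.24 (SE, limma adjusted p = 0.000166), or 3.66-fold. Hsp90b1, the ER HSP90, had 1.76, 2.79 and 2.01 in TIC, against 0.24, 0.74 and -0.06 in day 10 blood. Its difference of 1.88 ± 0.29 (SE, limma adjusted p = 0.000514) was close to that of Hspa5, and the second Hsp90b1 probe gave 3.02. In both genes mouse 833 was the highest of its group in TIC and in day 10 blood.

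The promoter windows of both ER genes (RefSeq, GRCm38.p6) held the ER stress response element, shown because few windows do. The letters searched were CCAAT, any 9 bases and CCACG, on either strand, in capitals below, and 0.113% of the 32817 windows held one. The Hspa5 window is chr2:34771840-34772089 on the plus strand and the Hsp90b1 window is chr10:86705445-86705694 on the minus strand:
Hspa5: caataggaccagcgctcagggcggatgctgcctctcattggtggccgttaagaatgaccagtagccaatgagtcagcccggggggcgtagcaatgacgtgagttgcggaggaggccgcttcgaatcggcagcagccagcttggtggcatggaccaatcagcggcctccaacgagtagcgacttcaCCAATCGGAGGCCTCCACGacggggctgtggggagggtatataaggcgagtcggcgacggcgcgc
Hsp90b1: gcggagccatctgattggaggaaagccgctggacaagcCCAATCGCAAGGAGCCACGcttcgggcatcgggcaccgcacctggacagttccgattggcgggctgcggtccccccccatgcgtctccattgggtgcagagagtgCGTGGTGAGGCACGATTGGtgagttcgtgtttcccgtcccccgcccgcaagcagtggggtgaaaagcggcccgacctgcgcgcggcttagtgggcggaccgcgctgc
The Hspa5 match lies at -65 to -47 from the start, and the Hsp90b1 matches at -212 to -194 and, in the reverse form, at -107 to -89. Windows were found for 7 of the chaperone genes, 8 windows in all. None of Hspd1, Hspe1, Hspb1, Cct3 and Tcp1 held the ER element in these bases. The Hspb1 window held 2 matches to the 2-unit heat shock element GAANNTTC, a form found in 6.69% of windows, and none to the 3-unit form.

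Among the cytosolic heat shock proteins the groups lay closer. Hspa8, the constitutive HSP70, had log2 ratios of 0.56, 2.01 and 0.35 in TIC, against 0.62, 0.99 and 0.06 in day 10 blood. The groups overlapped, and mouse 833 was the highest sample in both. The difference was 0.41 ± 0.46 (SE, limma adjusted p = 0.446), and without the TIC array of mouse 833 it was -0.11. Hsp90aa1, the inducible HSP90, had 0.91, 1.83 and 0.76 in TIC, against 0.20, 0.68 and 0.35 in day 10 blood. These groups did not overlap, by a gap of 0.76 against 0.68, and the difference of 0.76 ± 0.35 did not pass (SE, limma adjusted p = 0.0821). With the mouse as a block it did (limma adjusted p = 0.00801), the only call on the 10 genes in this comparison that the block changed. With the slide as a block it was 0.15 (adjusted p = 0.867), and with both blocks 0.39 (adjusted p = 0.609).

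Hspb1, the small heat shock protein, was the only one of the 10 with lower ratios in TIC. It had log2 ratios of -0.09, -0.87 and -0.65 in TIC, against 0.03, 0.03 and 0.13 in day 10 blood, a difference of -0.60 ± 0.19 (SE, limma adjusted p = 0.0191). None of the day 10 blood arrays measured its probe well above background, so these ratios are not measured levels and no fold is given. In plain intensity the order was the opposite, with Cy5 spots of 296.4, 59.7 and 95.2 units in TIC, against 49.3 to 50.8 units in day 10 blood. Under median centring in place of loess the difference was 0.70 (limma adjusted p = 0.175), so the sign of the Hspb1 difference depended on the scaling. Relative to the median of all genes, Hspb1 lay at -0.67 after loess and -0.69 after median centring. With the deposited ratios it lay at -1.91, and with Cy5 alone at -0.63.

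Of the chaperonin subunits, Tcp1 was separated in every mouse and Cct3 was at the edge of the test. Tcp1, the alpha subunit, had log2 ratios of 0.92, 1.16 and 0.97 in TIC, against -0.26, -0.10 and -0.02 in day 10 blood, where 1 of 3 arrays measured it well above background. The difference was 1.14 ± 0.13 (SE, limma adjusted p = 8.49e-05), and with this probe the TIC samples were the most even of the 10 genes. The other kept Tcp1 probe was less even, at 1.76, 0.38 and 1.54 in TIC, with a difference of 1.25. No blood array measured that other probe well above background. Cct3, the gamma subunit, had 0.12, 1.33 and 0.49 in TIC, against -0.13, 0.01 and -0.15 in day 10 blood. No blood array measured Cct3 well above background. In the Cy5 channel TIC was 1.74-fold the undetected signal of day 10 blood. The loess ratios passed the test (limma adjusted p = 0.0337), and that p does not belong to the Cy5 figure. The Cy5 figure sets the mean of the TIC arrays, normalized per channel, against the higher of the dimmest detected signal and the probe's own on each blood array. For Cct3 this was the probe's own signal, so the figure is an estimate without SE and no lower limit. The Cct3 gene passed the filter only through the TIC arrays. Its call was lost without any 1 of the day 10 arrays (adjusted p = 0.0621 to 0.0857), without the TIC array of mouse 834 (0.0510), with no filter (0.0531) and with only the 2 groups (0.0738). Without the TIC array of mouse 833 the Cct3 difference was 0.40, against 0.74 with all arrays.

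**Figure D2:**
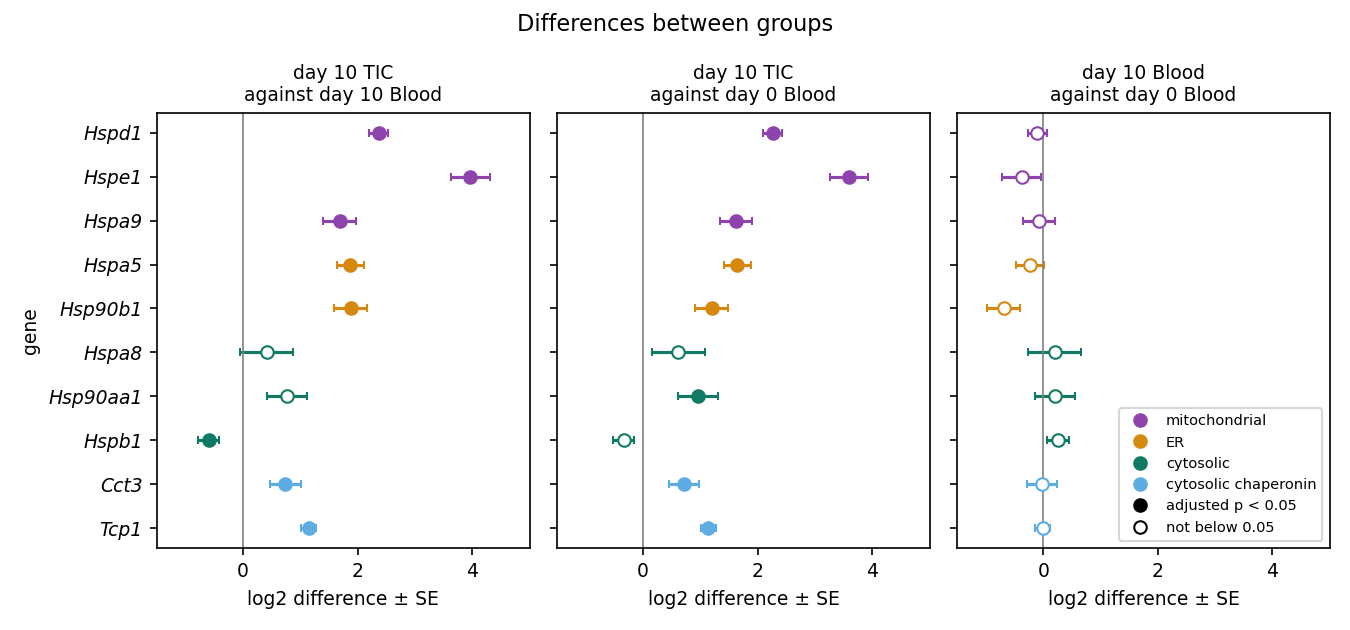
Log2 difference with its SE (horizontal axis) for each gene in the 3 comparisons, 3 arrays a group. Filled points have a limma adjusted p below 0.05. The mitochondrial and ER genes are filled in both panels with TIC, and no point is filled between the bloods.

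In TIC against day 0 blood the mitochondrial and ER genes were again higher in all 3 mice; both comparisons use the same TIC arrays. Here 8 of 10 genes were higher and 0 lower, beside 65.4% of all genes called, 31.7% as higher and 33.6% as lower. The median log2 difference was 2.26 for the mitochondrial, 1.42 for the ER and 0.71 for the cytosolic genes (the value of Cct3, and 0.79 without it), beside 0.01 for all genes. Hspe1 had log2 ratios of 0.20, 0.42 and 0.54 in day 0 blood and was 3.59 ± 0.34 higher in TIC (SE, limma adjusted p = 3.84e-05), at rank 16. Hspd1, with -0.11, 0.26 and -0.08 in day 0 blood, was 2.26 ± 0.16 higher in TIC (limma adjusted p = 1.037e-05). Neither gene had a blood sample within 1 log2 unit of its lowest TIC sample. Hspa9 had -0.14, 0.11 and -0.10 in day 0 blood and was 1.61 ± 0.28 higher in TIC (limma adjusted p = 0.00114).

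The ER genes had higher ratios in TIC than in day 0 blood. Those of Hsp90b1 in day 0 blood were 0.77, 1.16 and 1.06, and TIC was 1.19 ± 0.29 higher (SE, limma adjusted p = 0.00654). Hspa5 had 0.38, 1.05 and 0.26 in day 0 blood, with a difference of 1.64 ± 0.24 (limma adjusted p = 0.000413). For both, every TIC sample stayed above every day 0 sample. Hsp90aa1 had 0.06, 0.85 and -0.28 in day 0 blood, and its difference of 0.96 ± 0.35 passed (limma adjusted p = 0.0380) although 1 blood sample lay above the lowest TIC sample. That call did not hold without the TIC array of mouse 833 (0.62, adjusted p = 0.0783). Hspa8 had -0.04, 0.94 and 0.18 in day 0 blood, overlapping TIC, with a difference of 0.61 ± 0.46 (limma adjusted p = 0.264).

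Tcp1 had -0.32, 0.06 and -0.09 in day 0 blood and was 1.14 ± 0.13 higher in TIC (SE, limma adjusted p = 0.000111). Cct3 was again not well above background in blood, and in the Cy5 channel TIC was 1.66-fold that undetected signal. Its loess ratios passed the test (limma adjusted p = 0.0395). Hspb1 had -0.33, -0.10 and -0.16 in day 0 blood, 2 of 3 arrays being well above background, and did not pass the test (-0.34 ± 0.19, limma adjusted p = 0.137). On slide 2, which held 2 TIC and 2 day 0 arrays, the differences were 2.28 for Hspd1, 3.39 for Hspe1, 1.78 for Hspa9, 1.55 for Hspa5 and 1.44 for Hsp90b1. On the same slide they were 0.73 for Hspa8, 0.84 for Hsp90aa1, 1.19 for Tcp1, 0.96 for Cct3 and -0.54 for Hspb1. Each had the sign found over all slides.

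Between day 10 and day 0 blood of the same mice, 0 of the 10 genes passed the test, as did 0% of all 14253 genes. At an unadjusted p below 0.05, 14.8% of all genes and, of the 10, only Hsp90b1 would pass. Hsp90b1 had log2 ratios of 0.24, 0.74 and -0.06 in day 10 blood, against 0.77, 1.16 and 1.06 in day 0 blood. It was lower in 3 of 3 mice and the groups did not overlap, but the difference of -0.69 ± 0.29 was no call (SE, limma adjusted p = 0.320, unadjusted p = 0.0436). The second Hsp90b1 probe gave -0.89. The difference was -0.23 ± 0.24 for Hspa5 and -0.37 ± 0.34 for Hspe1, which was also lower in 3 of 3 mice. For Hspd1, Hspa9, Cct3 and Tcp1 it lay between -0.10 and -0.01, and for Hspa8 and Hsp90aa1 it was 0.20 ± 0.46 and 0.20 ± 0.35. Hspb1 stood at 0.26 ± 0.19, with no day 10 array well above background. All genes except Hsp90b1 and Hspb1 overlapped between the bloods. The share of all tested genes without such overlap was not counted, so this count says little about the chaperone genes. On slide 3, with 3 day 10 arrays and 1 day 0 array, the difference was -0.75 for Hsp90b1 and -0.53 for Hspe1. On that slide it was 0.69 for Hsp90aa1, 0.38 for Hspa8 and 0.22 for Hspb1, and between -0.03 and 0.07 for the other genes.

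The spots themselves show how far the samples differed before scaling. The Hspd1 spot had a Cy5 mean intensity of 72990, 13310 and 32300 units in TIC, against 63.7 to 88.4 units in day 10 blood and 94.2 to 189 units for day 0 blood. The Hspe1 spot had 83360, 5130 and 31750 units in TIC, against 55.7 to 83.8 units in day 10 blood and 112.1 to 158.3 units for day 0 blood. Local Cy5 background was 41 to 53 units, so both blood signals were low and the TIC signals far above. Hspa8, whose ratios overlapped after loess, had spots of 17780, 11040 and 6694 units in TIC, against 114.6 to 302.3 units in day 10 blood and 198.9 to 582.4 units for day 0 blood. Loess, which assumes that most genes do not change at each brightness, took 0.37 to 4.10 log2 units off the ratios of the 10 genes on TIC arrays. It added 0.40 to 2.73 on day 10 and 0.27 to 2.12 on day 0 blood arrays. All loess differences above are thus relative to genes of like brightness on the same array.

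**Figure D3:**
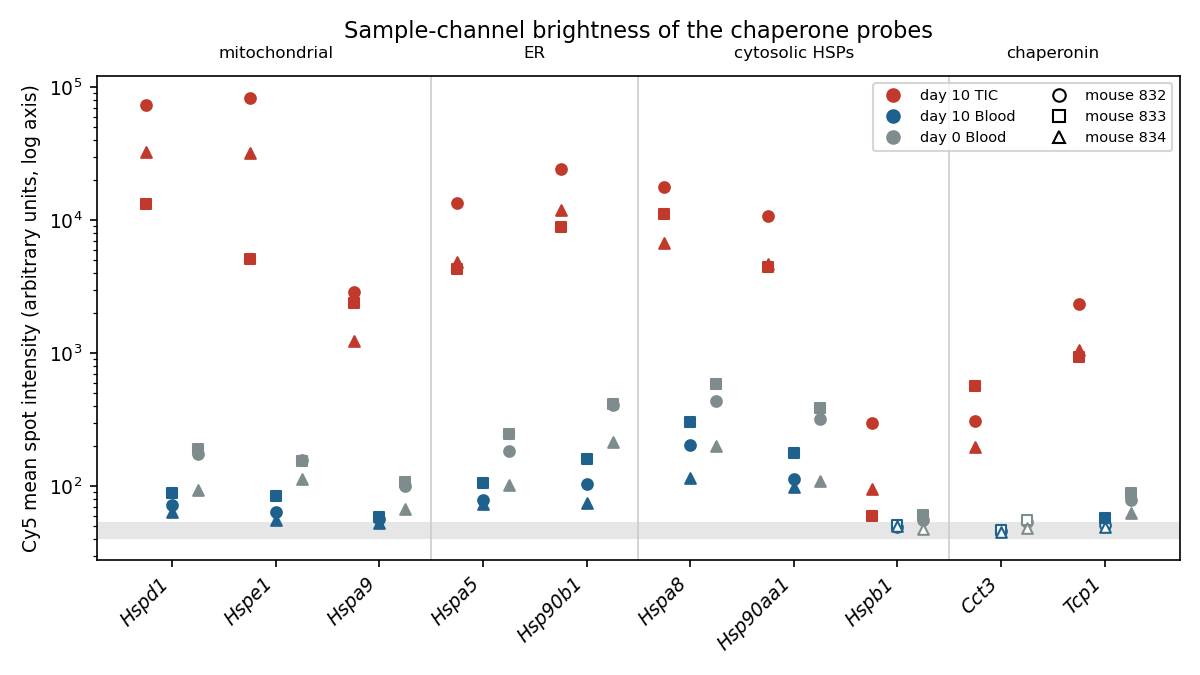
Mean Cy5 spot intensity (vertical axis, log scale, arbitrary units) of the chaperone probes on each array, before any correction; the grey band is the range of local background. TIC spots of Hspd1 lie at 13310 to 72990 units and blood spots at 63.7 to 189 units. Open markers were not well above background.

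Other scalings changed the sizes. The median of all genes in TIC against day 10 blood was 0.07 after loess, 1.38 after median centring, 0.85 with the deposited ratios and 0.23 with quantile-normalized Cy5 alone. Relative to that median, Hspe1 lay at 3.89 after loess, 6.39 after median centring, 3.34 with the deposited ratios and 3.99 with Cy5 alone. Hspd1 lay at 2.30, 5.15, 1.40 and 4.17 in the same order. Hspa8 lay at 0.34, 3.74, -0.53 and 1.02, so whether it was above or below the typical gene depended on the scaling. Hsp90aa1 likewise lay at 0.69, 3.67, -0.49 and 0.74. In the same order Hspa9 lay at 1.61, 3.29, 1.355 and 1.31. Hspa5 lay at 1.80, 4.33, 1.28 and 1.43, and Hsp90b1 at 1.81, 4.74, 0.83 and 2.24. Tcp1 lay at 1.08, 2.62, 1.70 and 0.996, and Cct3 at 0.67, 0.81, 2.63 and 0.78. With the deposited ratios Cct3 and Tcp1 thus lay above Hspd1, Hspa9 and both ER genes. Under median centring Hspa8 and Hsp90aa1 lay above Hspa9. The share of called genes that were higher in TIC was 51% after loess, 95.7% after median centring, 63.3% with the deposited ratios and 60.9% with Cy5 alone.

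**Figure D4:**
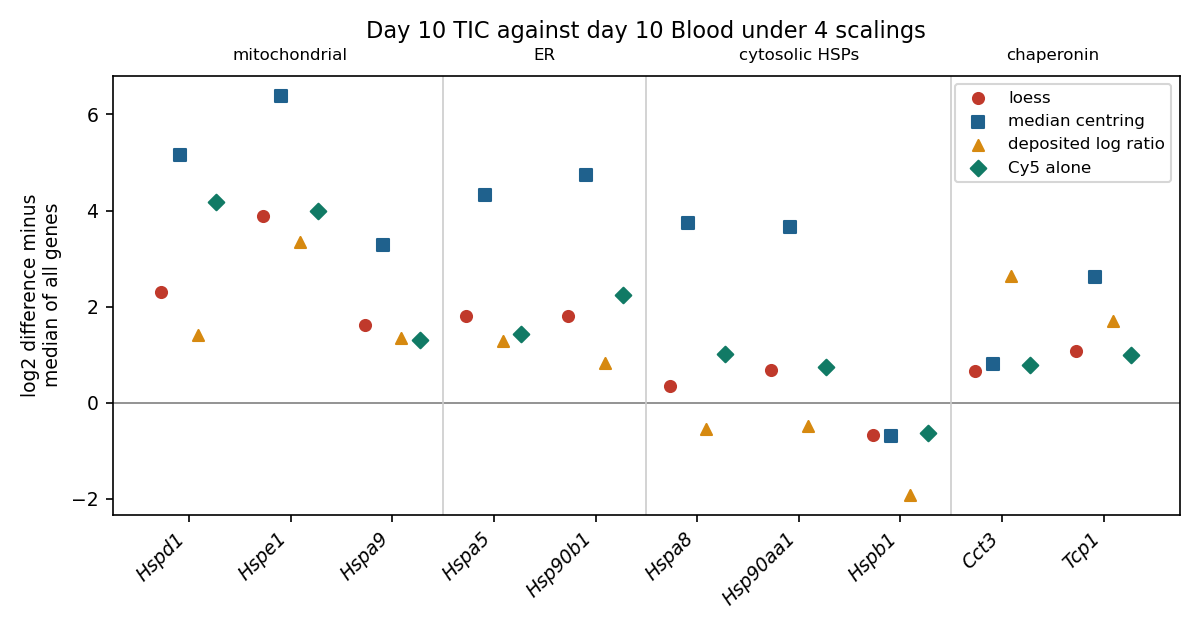
Log2 difference of TIC against day 10 blood minus the median of all genes (vertical axis) for each chaperone gene under 4 scalings of the same 6 arrays. Hspe1 lies at 3.34 to 6.39, and Hspa8 at -0.53 to 3.74.

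The wider chaperone network was described with 86 further genes in 8 lists, of which 80 were measured. In TIC against day 10 blood 56 were higher, 12 lower and 12 not called, with a median log2 difference of 0.81, beside 34.4% of all genes higher and 33.1% lower. Of the 80, 10 passed the filter only through the TIC arrays, and all 10 are among the higher: Trap1, Ero1a, Hspa1b, Hspa2, Bag2, Fkbp4, Hspb2, Hspb8, Cct6a and Pfdn4. Of the other 70, 46 were higher and 12 lower. Without the 10, the ER list had 16 of 17 higher and 0 lower, and the mitochondrial partners 7 of 8 higher and 1 lower. The cytosolic list then had 11 of 24 higher and 8 lower. Higher were also 4 of 6 chaperonin subunits, 4 of 6 prefoldin genes and 1 of 2 small heat shock proteins, with 0 lower. List counts and medians below include the 10, whose rise was partly built in. Of 18 ER chaperones and folding enzymes, 17 were higher and 0 lower (median 1.32), among them Calr, a calcium-binding lectin chaperone, at 1.45 ± 0.14 (SE, limma adjusted p = 3.21e-05). Manf, a secreted ER stress protein, was 1.72 ± 0.17 higher (SE, limma adjusted p = 3.24e-05). Of the 14 genes of this list with a promoter window, 5 held the ER stress response element, namely Calr, Canx, Creld2, Dnajc3 and Pdia6. They are named for that match, after the values were seen. With 17 of the 18 genes of the list higher, a rise was not particular to these 5, and a link to the element was not tested. The log2 differences of these genes were 1.45 for Calr, 1.86 for Canx, 1.34 for Creld2, 0.96 for Dnajc3 and 2.20 for Pdia6, each with a limma adjusted p of 0.00552 or less. These are values of the brightest probe. Other kept probes gave 0.33 to 1.09 for Pdia6, 0.02 to 1.32 for Dnajc3, 1.41 to 1.63 for Canx and 1.02 for Calr.

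The regulators of the unfolded protein response were mixed, with 3 of 6 higher and 2 lower (median -0.02). Xbp1, a transcription factor of that response, was 1.06 ± 0.18 higher (SE, limma adjusted p = 0.000777), while Ern1, which encodes the sensor IRE1 that splices Xbp1 RNA, fell by 0.53 (limma adjusted p = 0.00288). Under median centring 6 of these 6 were higher, Ern1 at 1.12 (adjusted p = 0.00145), which is -0.26 relative to all genes, and with the deposited ratios 3 were higher and 0 lower. Of 9 mitochondrial partners 8 were higher (median 1.01). Trap1, the mitochondrial HSP90, was called higher (limma adjusted p = 7.28e-05), with no fold given because no day 10 blood array measured it well above background. The exception was Hscb, a co-chaperone of Hspa9 in iron-sulphur cluster assembly, which fell by 5.31 (limma adjusted p = 2.50e-06).

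The cytosolic HSP70 and HSP90 family with its co-chaperones was divided, with 15 of 28 higher, 8 lower and 5 not called (median 0.38). Ppid, an HSP90-binding prolyl isomerase, was 2.69 ± 0.18 higher (SE, limma adjusted p = 4.43e-06), and its other kept probe gave 1.32. Dnajb2, an HSP40 co-chaperone, fell by 3.69 (limma adjusted p = 8.99e-07). Of the other chaperonin subunits 5 of 7 were higher and 0 lower (median 0.89), with Cct4 at 1.65 ± 0.21 (SE, limma adjusted p = 0.000147) and Cct5 at 2.51 ± 0.59 (adjusted p = 0.00530), which is named after its value was seen. Cct6b was also called (adjusted p = 4.61e-05). Prefoldin, which hands unfolded actin and tubulin to TRiC, and its like counted 5 of 7 higher and 0 lower (median 1.55), Pfdn1 (adjusted p = 0.000388) and Pfdn6 (0.000498) among them. Of 4 small heat shock proteins 3 were higher and 0 lower (median 1.04), Hspb8 (adjusted p = 0.000351) and Hspb2 (0.00951) among them, both measured through TIC alone. With Cy5 alone Hspb2 was no call (0.40, adjusted p = 0.322). The day 10 blood arrays did not measure Cct6b, Pfdn1, Pfdn6, Hspb8 or Hspb2 well above background, and no fold is given for these 5 genes. Hsf1, the master factor of the heat shock response and the only factor measured, stood at -3.57 with its brightest probe (limma adjusted p = 5.61e-06). Its other 2 probes gave 0.42 and 0.45, so no direction is given for Hsf1.

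In TIC against day 10 blood the ER list kept its direction under other scalings, with 17 or 18 of 18 higher and a median 1.18 to 2.28 above that of all genes under loess, no background correction, Cy5 alone, deposited ratios and median centring. The cytosolic list did not. Its median lay between -0.06 (deposited ratios) and 1.76 (median centring) relative to all genes, and under median centring 25 of 28 were higher and 0 lower. None of the network genes was called lower under median centring, where Hscb and Dnajb2 lay at -0.96 and -0.52 relative to the median of all genes. The mitochondrial partners, other chaperonin subunits, prefoldin genes and small heat shock proteins had medians above that of all genes under each of these 5 scalings. Against day 0 blood the ER list had 13 to 18 of 18 higher and 0 lower, with a median 0.67 to 2.14 above that of all genes. There the cytosolic list had 24 of 28 higher and 0 lower under median centring, and 13 higher and 3 lower with deposited ratios or Cy5 alone. Hscb then lay at 0.36 under median centring (adjusted p = 0.639), which is -0.80 relative to all genes.

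**Figure D5:**
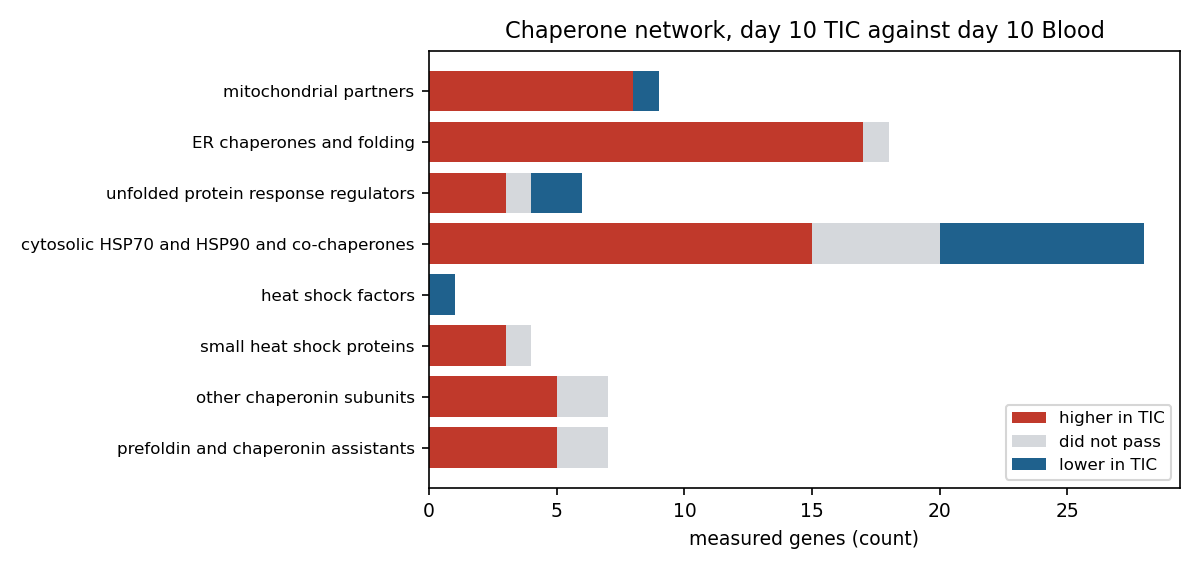
Number of measured genes (horizontal axis) in 8 chaperone lists that were higher in TIC, did not pass, or were lower in TIC against day 10 blood. The ER list has 17 of 18 higher, and the cytosolic list has 15 higher and 8 lower. Counts include the 10 genes that passed the filter only through the TIC arrays.

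Against day 0 blood, 50 of the 80 network genes were higher in TIC, 9 lower and 21 not called, with a median log2 difference of 0.81, beside 31.7% of all genes higher and 33.6% lower. Of the 10 that passed the filter through TIC alone, 8 were higher. Of the other 70, 42 were higher and 9 lower. The ER list again had 17 of 18 higher and 0 lower (median 1.04), with Manf at 1.53 and Sil1, the exchange factor of Hspa5, at 1.17. Of the cytosolic list 11 of 28 were higher, 5 lower and 12 not called (median 0.26). The mitochondrial partners had 7 of 9 higher and 1 lower, with Clpp, a matrix protease, at 1.77 and Hscb at -3.96. The regulators of the unfolded protein response had 2 of 6 higher and 2 lower, with Xbp1 at 1.05 and Eif2ak3, the ER stress kinase PERK, at -0.68. The limma adjusted p of each gene named here was 0.00149 or less. The chaperonin subunits (5 of 7), prefoldin genes (5 of 7) and small heat shock proteins (3 of 4) had as many higher as against day 10 blood.

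Between day 10 and day 0 blood, 0 of the 80 network genes passed. At an unadjusted p below 0.05, 13 of the 80 would pass, beside 14.8% of all genes. The number called at an adjusted p below 0.05 depended on the setting. In place of 0 it was 12 with only the 2 groups and 11 without the TIC array of mouse 833. It was 5 with deposited ratios, 3 with Cy5 alone and 1 with the mouse as a block. Counts over all genes in the same settings, given further below, also rose from 0. The closest were Dnajb2, with a difference of 1.41 ± 0.15 (SE, limma adjusted p = 0.0514), and Dnajb6, an HSP40 that holds back protein aggregation, with 1.45 ± 0.32 (SE, limma adjusted p = 0.106). Hscb stood at 1.34 (limma adjusted p = 0.117) and Calr at -0.46 (limma adjusted p = 0.199). The median over the 18 ER genes was -0.22, beside -0.01 over all genes.

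Across the 9 arrays the log2 ratio of Hspd1 was most like that of Tcp1 (r = 0.985) and Hspa5 (r = 0.979) among the 10 genes, and least like that of Hspa8 (r = 0.525) among those with a positive r. Hspb1 had a negative r with each of the others, between -0.873 and -0.483. These r values describe 9 arrays in 3 groups, share normalization, and mostly follow the gap between TIC and blood. Over all tested genes with a symbol, the 5 most like Hspd1 were Cyp7b1, Sgo1, Acsl3, Dis3 and C1qbp (r = 0.997 to 0.999), and 749 genes had an r above 0.95. For Hspa5, 395 genes had an r above 0.95. For Hspa8, whose ratios followed mouse 833 more than the group, 0 genes passed 0.95, and the 5 most like it were Spice1, Cdc42bpg, Nt5dc3, Rfwd3 and Srgap2 (r = 0.883 to 0.944).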

How the data were processed

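The authors deposited scanner tables of 9 Agilent two-colour arrays with spot and background intensity and log10 ratios of sample (Cy5) to reference (Cy3). According to the file headers they come from Feature Extraction 10.5.1.1, and per the submitters' processing notes from 9.1.3.1. The deposited value table held the same log10 ratios. Intensities were corrected by normexp (offset 50, spots with non-uniform background set aside), ratios normalized by loess within arrays, and spots averaged per probe. Probes that 3 or more of the 9 arrays measured well above background in Cy5 were kept, and each gene took its brightest probe. Genes were tested by limma 3.58.1 (R 4.3.3) over all 9 arrays with group as the only term (6 residual degrees of freedom), Benjamini-Hochberg adjusted over 14253 genes. No spot was saturated. The number of arrays limits the precision. The fit was tested on simulated data. Named genes are the 10 chaperones, the 2 network genes of smallest p per list and comparison, and the 5 genes most like Hspd1 and Hspa8; the list for Hspa5 is not reported here. Members and lists were chosen with earlier results of these data known. Mouse numbers pair the groups per the labels, being the same animals. Deviations from group means correlated at 0.19 to 0.35 between the bloods of a mouse, and at -0.06 to 0.06 between TIC and either blood.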

Additional observations from a re-analysis of the deposited data

How the results depend on the processing

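The members called in TIC against day 10 blood, 8 in the reported setting, were 7 to 9 under median centring, deposited log ratios, no background correction, Cy5 alone, all spots, no filter, the mean of all probes or only the 2 groups compared. They were 6 of 8 measured with a filter of 6 arrays, 5 of 7 measured with one of all 9 arrays, and 6 to 8 leaving out 1 array at a time. With the mouse as replicate block 9 were called, Hsp90aa1 being added, with the slide as a block 6, and with both 2 (Hspd1, adjusted p = 0.0387, and Hsp90b1, adjusted p = 0.0287). With the slide as a block Hspa5 had an adjusted p of 0.0507 and Cct3 of 0.13. Against day 0 blood the 8 calls were 6 to 9 in every setting run, the mouse block changed no call, and between the bloods 0 were called in each.

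Hspb1 turned round under median centring, to 0.70 in TIC against either blood, and against day 0 blood also with deposited ratios (0.26) and Cy5 alone (0.12). Against day 10 blood, the 0.70 under median centring is -0.69 relative to the median of all genes. Hspa8 in TIC against day 10 blood ran from -0.11, without the TIC array of mouse 833, to 0.72 when 1 array was left out. Between the bloods, where none was called, signs turned for Hspa8 (-0.81) and Hsp90aa1 (-0.69) under median centring, Cct3 without background correction (0.040), Hspa5 with Cy5 alone (0.0023), and Tcp1 with the mean of all probes (0.0040). They also turned for Hspd1 (0.0033), Cct3 (0.017) and Hspa5 (0.074) with the slide as a block, and for Hspa8 (-0.27) and Tcp1 (0.020) with mouse and slide. Leaving out 1 array gave ranges across 0 for Hspd1 (-0.17 to 0.017), Hspa9 (-0.12 to 0.0079), Cct3 (-0.074 to 0.026), Tcp1 (-0.11 to 0.082), Hspa5 (-0.38 to 0.013), Hsp90aa1 (-0.046 to 0.52) and Hspa8 (-0.017 to 0.49). The cause of these changes was not tested.

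All genes called in TIC against day 10 blood numbered 9632, and 2956 with the filter of all 9 arrays, 5462 with that of 6 arrays, 4274 blocked by slide and 1110 blocked by mouse and slide. Between the bloods 0 genes were called, against 757 with deposited ratios, 447 with Cy5 alone, 32 with the mouse block, 747 with only the 2 groups and 1058 without the TIC array of mouse 833. Blood signals near background limit Hspb1, Cct3 and Tcp1.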

Other observations

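The reference channel of Hspd1 differed between arrays although the reference RNA was the same. Its Cy3 spot had 957.5, 926.7 and 1235 units on the TIC arrays, against 304.1 to 309.9 units on the day 10 blood arrays and 311.7 to 331.5 units on the day 0 blood arrays. Hspe1, the gene next to it, had a Cy3 spot of 226.7 to 293 units on TIC arrays, against 215.4 to 219.4 units on day 10 and 221.7 to 232.1 units on day 0 blood arrays. The second Hspd1 probe had 94.6 to 106.2 Cy3 units on TIC arrays, against 74.9 to 84.4 on blood arrays. With it, TIC was 3.11 log2 units above day 10 blood. The Hsp90b1 spot had 521.1 to 567.9 Cy3 units on TIC arrays, against 378.2 to 452.9 on blood arrays. Its second probe had 207.1 to 239 units on TIC arrays and 211.9 to 233.2 on blood arrays. A higher reference signal lowers the ratio, and the TIC ratios of the main Hspd1 probe stand over its raised reference signal. The cause was not tested.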
